A study of Mus musculus with 6 samples.

Results

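Glutathione synthesis and use was followed in 10 genes, chosen by name among the 53465 genes of the deposited expression table. They are Gclc, Gclm, Gss, Gsr, Gpx1, Gpx4, Gstm1, Gstp1, Gsta4 and Mgst1, and each symbol had 1 row. RNA was sequenced from bone marrow cells of wild-type mice, sorted to hold long-term haematopoietic stem cells, or LT-HSCs, the rarely dividing cells from which all blood lineages arise. The gate was Lineage-, Sca-1+, c-Kit+, Flk2- and CD34-. All mice were irradiated with 5.0 Gy (total body) and then given saline, as the control, or carnosine, which joins beta-alanine to histidine. Each group had 3 libraries, and all 6 were from irradiated animals. The sources used here give neither the mice's age nor the carnosine dose. Whether 1 library equals 1 mouse is not stated, so the p-values describe variation among libraries that may be technical.

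Glutathione is a small peptide of glutamate, cysteine and glycine that serves cells as their main soluble thiol. Glutamate-cysteine ligase, a dimer of the catalytic subunit Gclc and the modifier subunit Gclm, makes the first and rate-limiting bond, and glutathione synthetase (Gss) adds the glycine. Peroxidases such as Gpx1 and Gpx4 spend glutathione on reducing hydrogen peroxide and lipid peroxides, transferases (Gst and Mgst genes) attach it to reactive molecules, and glutathione reductase (Gsr) restores the oxidised form with NADPH. Radiation produces reactive oxygen species, and long-term stem cells are known to be sensitive to them.

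Gpx1 and Gpx4 are selenoproteins: an in-frame TGA codon, which elsewhere ends translation, is read as selenocysteine at the active site. The 45 coding bases around that codon are shown because they identify the 2 peroxidases and because the Gpx4 stretch recurs in a pseudogene that bears on its counts. They were read from the GENCODE M21 transcripts Gpx1-201, Gpx4-201 and Gpx4-ps2-201 (GRCm38), 5′ to 3′, with the TGA in capitals. The codon is number 47 of 201 in Gpx1 (chr9:108339430-108339474, plus strand) and number 129 of 253 in this Gpx4 transcript (chr10:80054716-80054760, plus strand).
Gpx1: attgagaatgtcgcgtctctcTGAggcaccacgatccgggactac
Gpx4: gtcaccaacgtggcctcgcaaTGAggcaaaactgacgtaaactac
Gpx4-ps2: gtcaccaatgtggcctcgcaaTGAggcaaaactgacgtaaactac
The Gpx4 and Gpx4-ps2 stretches differ by 1 base, C9T, with the Gpx4 base first and positions counted from 1 at the 5′ end of the stretch.

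Of the 10 genes, 4 rose with carnosine (Gpx1, Gstm1, Gsr and Gclc), 0 fell and 6 did not pass the test. The test was edgeR's quasi-likelihood test at a Benjamini-Hochberg adjusted p under 0.05, fitted over 15533 genes. All 10 passed the filter on low counts. With the same rule 19.6% of all tested genes were higher with carnosine, 19.8% lower and 39.4% changed in either direction, so the 40% called among 10 genes is near the background. Levels are given as CPM, counts scaled to the size of the library with TMM factors. Counts at an unadjusted p under 0.05 came to 7435 over all genes. The median log2 fold change was 0.12 over the 10 genes and -5e-05 over all genes tested. Levels of carnosine and saline libraries did not overlap for 5 of the 10 genes, against 52.3% of all tested genes.

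Markers of several blood lineages moved with the treatment too, and their part in the results on glutathione genes was not tested. All 6 granulocyte progenitor markers (Mpo, Elane, Prtn3, Ctsg, Ms4a3 and Cebpe) rose, and their summed level was 3737 to 3763 CPM with saline and 7733 to 7984 CPM with carnosine. Of 9 megakaryocyte markers 8 were tested and 8 fell, from sums of 411.3 to 436 CPM to 174.9 to 181.6 CPM, with Ppbp under 1 CPM. Mast cell and basophil markers fell in 5 of 8 cases (202.2 to 219.9 against 110.8 to 121.2 CPM), namely Mcpt8, Prss34, Cpa3, Ms4a2 and Fcer1a. Mcpt4, Tpsb2 and Cma1 overlapped between the groups and did not pass the test (edgeR adjusted p = 0.6, 0.3 and 0.65). Erythroid markers rose in 6 of 9 cases and fell in 1 (475.6 to 482.2 against 619 to 642.4 CPM). The monocyte and macrophage list (2 of 7 tested higher, 2 lower) summed to 247.4 to 279.9 CPM with saline and 263.9 to 301.1 CPM with carnosine, with C1qa, C1qb and C1qc under 1 CPM. The T and NK cell list (2 of 3 higher, 1 lower) summed to 83.18 to 85.89 and 112.2 to 119.9 CPM, mostly through Nkg7. The 1 that fell was Klrb1c, from a mean of 2.442 to 0.7169 CPM (edgeR adjusted p = 0.0025). Cd3e, a chain of the T cell receptor complex, was low but rose, from 0.3031, 0 and 0.1625 CPM to 1.222, 1.442 and 1.004 CPM (edgeR adjusted p = 0.0066). Cd3d and Cd3g were not tested, Cd3d was under 1 CPM in every library, and Cd3g was at 0, 0.4544 and 0.1625 CPM with saline and 1.007, 0.5767 and 1.158 CPM with carnosine. Endothelial and stromal markers (0 of 4 higher, 3 lower) summed to 110.8 to 122.2 and 90.67 to 96.08 CPM. Pecam1 made up most of that sum (means 98.61 and 88.18 CPM). Kdr fell from a mean of 7.789 to 1.466 CPM and Cdh5 from 7.161 to 1.058 CPM. B and plasma cell markers (1 of 7 higher, 1 lower) spread widely with carnosine, from 327.2 to 626.1 CPM against 354.5 to 367.9 CPM, through Jchain, which was at 584.2, 575.6 and 281.4 CPM in carnosine replicates 1 to 3. The 10 long-term stem cell markers summed to 576.8 to 587.1 CPM with saline and 555.7 to 581.3 CPM with carnosine, with Hoxb5 between 0.4634 and 1.218 CPM and not tested. Of the 9 tested, 4 fell and 1 rose. The 1 that rose was Kit, a gene of the sort gate and the largest part of that sum (means 329.6 and 378.1 CPM). Those that fell were Slamf1 (28.56 to 14.99 CPM), Mecom (20.87 to 10.36), Meis1 (85.53 to 52.7) and Fgd5 (3.289 to 1.764), as group means. The level sum thus hides these falls. More cells of a type and more RNA per cell cannot be told apart in such bulk samples, and LT-HSC here names the gate. Library totals were 12602067 to 16866534 counts for saline and 12730837 to 13651553 counts for carnosine.

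**Figure D1:**
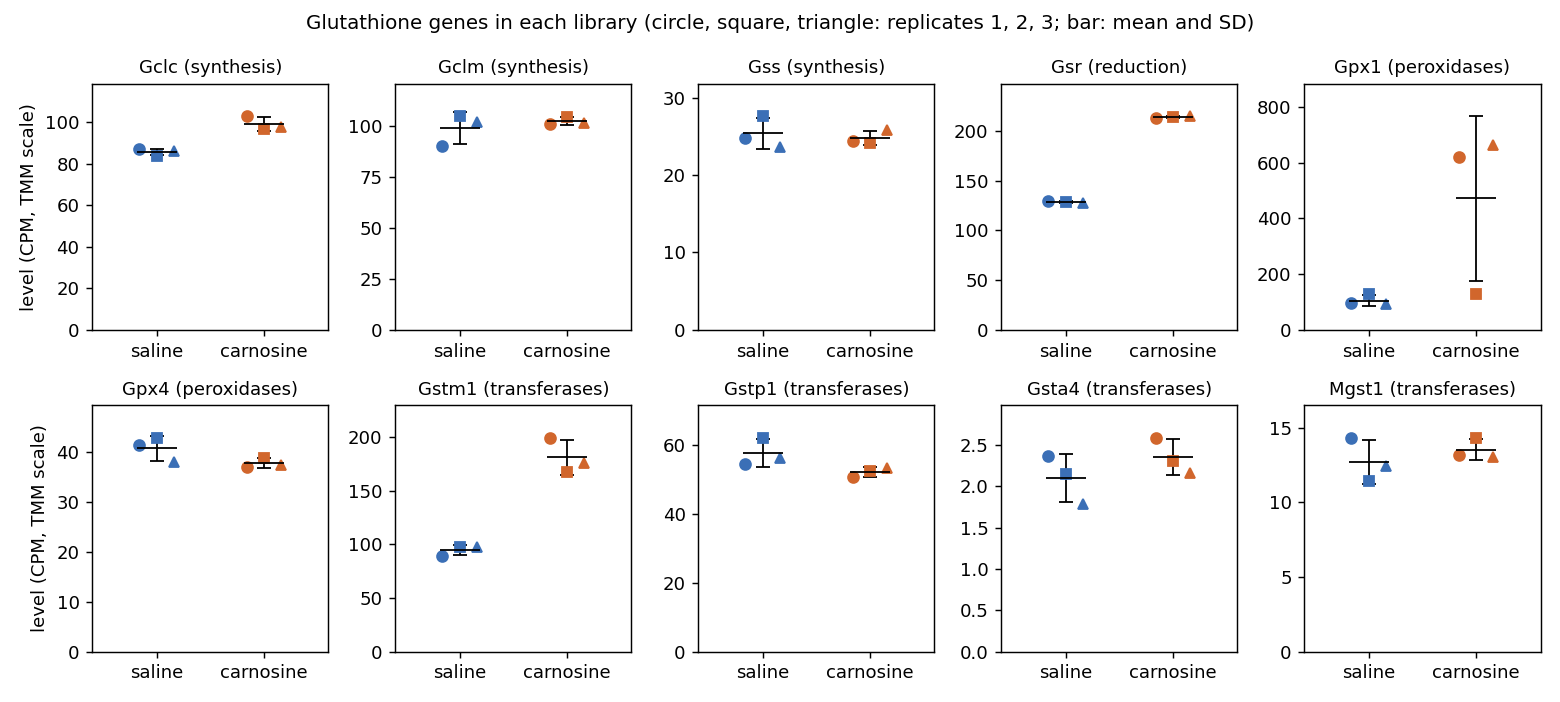
Level of each of the 10 genes in each library, in CPM on the TMM scale (vertical axes from 0), for saline (blue) and carnosine (orange). Circles, squares and triangles stand for replicates 1, 2 and 3 and bars for the mean and SD of 3 libraries. Gsr and Gstm1 sit apart by group, while carnosine replicate 2 of Gpx1, at 129.8 CPM, sits beside the saline libraries.

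Among the synthesis enzymes only the catalytic subunit passed the test. Gclc (chromosome 9, 77754535 to 77794485, GRCm38, plus strand) was at 86.92, 83.93 and 86.1 CPM in saline replicates 1 to 3 and at 103.1, 96.74 and 97.78 CPM in carnosine replicates 1 to 3. All carnosine libraries lay above all saline libraries, and the highest library of a group was at most 1.07 times its lowest. The means of 85.65 ± 1.54 and 99.21 ± 3.42 CPM (SD, n = 3 each) differed 1.16-fold, or by 0.21 ± 0.0392 (SE) on the log2 scale (edgeR adjusted p = 0.0048).

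Its partner Gclm (chromosome 3, 122245557 to 122270732, plus strand) was at 90.13, 104.9 and 101.9 CPM with saline and 101, 104.5 and 101.3 CPM with carnosine. The groups overlapped, and saline replicate 1 was the low library. The log2 fold change of 0.0475 ± 0.0591 (SE; edgeR adjusted p = 0.56) had a 95% interval of -0.0914 to 0.19. Without saline replicate 1 its sign turned, to -0.0156. Whether Gclc and Gclm changed by different amounts was not tested.

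Gss (chromosome 2, 155563181 to 155592810, minus strand), the enzyme of the last synthesis step, was at 24.79, 27.65 and 23.64 CPM with saline and 24.45, 24.08 and 25.87 CPM with carnosine. The groups overlapped (log2 fold change -0.0338, 95% interval -0.21 to 0.14, edgeR adjusted p = 0.76). The sign turned without saline replicate 2 (0.033). Genes on the opposite strand overlap or adjoin Gss (Acss2, Gssos1 and Gssos2), and strand use in the counting is not stated, so its level is uncertain.

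Glutathione reductase rose the most evenly. Gsr (chromosome 8, 33652523 to 33698163, plus strand) was at 129.1, 128.6 and 127.1 CPM with saline and at 213.3, 214 and 215.1 CPM with carnosine. The libraries of each group were nearly level, and the lowest carnosine library lay far above the highest saline library. The means of 128.3 ± 1.03 and 214.1 ± 0.889 CPM (SD, n = 3 each) differed 1.67-fold, a log2 fold change of 0.74 ± 0.0241 (SE; edgeR adjusted p = 1.3e-06). Its coefficient of variation, 0.8% with saline and 0.415% with carnosine, was below the 2.3% and 1.85% that counting error alone would give at its counts. Gsr kept its direction and its call in all 18 alternative settings, with log2 fold changes from 0.717 to 0.795.

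The peroxidase Gpx1, which reduces hydrogen peroxide in the cytosol and mitochondria, had the largest fold change and the widest spread. Gpx1 (chromosome 9, 108338903 to 108340343, plus strand) was at 96.25, 127.3 and 92.28 CPM in saline replicates 1 to 3. In carnosine replicates 1 to 3 it was at 620.1, 129.8 and 665.6 CPM, from 8624, 1800 and 8618 counts. Carnosine replicates 1 and 3 were thus far above every saline library, while carnosine replicate 2 was 1.02 times the highest of them. The means of 105.3 ± 19.2 and 471.8 ± 297 CPM (SD, n = 3 each) gave a log2 fold change of 2.16 ± 0.548 (SE), with a 95% interval of 0.87 to 3.45 (edgeR adjusted p = 0.018).

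The 4.48-fold mean difference of Gpx1 is the level of no library. The mean of carnosine replicates 1 and 3 was 6.11 times the saline mean, and carnosine replicate 2 was 1.23 times it. Without carnosine replicate 2 the log2 fold change was 2.61 (edgeR adjusted p = 6.2e-05). The call was lost without saline replicate 1 (adjusted p = 0.06), saline replicate 3 (0.058), carnosine replicate 1 (0.052) or carnosine replicate 3 (0.054), and in 9 of 18 alternative settings in all. The direction was upward in every one of the 18, with adjusted p-values from 6.2e-05 to 0.11.

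The within-group spread of Gpx1 set it apart from the other 9 genes. Its coefficient of variation was 18.2% among saline libraries and 63% among carnosine libraries, where counting error alone would give 2.53% and 1.26%. The highest carnosine library was 5.13 times the lowest, and the highest saline library 1.38 times the lowest. In the other 9 genes this ratio ran up to 1.32 for saline and 1.2 for carnosine, both in Gsta4, the least abundant of them. Among 8096 tested genes of at least 20 CPM, Gpx1 ranked number 14 by the carnosine ratio. Its coefficient of variation stood at the percentile 99.8 for carnosine and 95.3 for saline, where the medians were 3.94% and 3.88%.

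**Figure D2:**
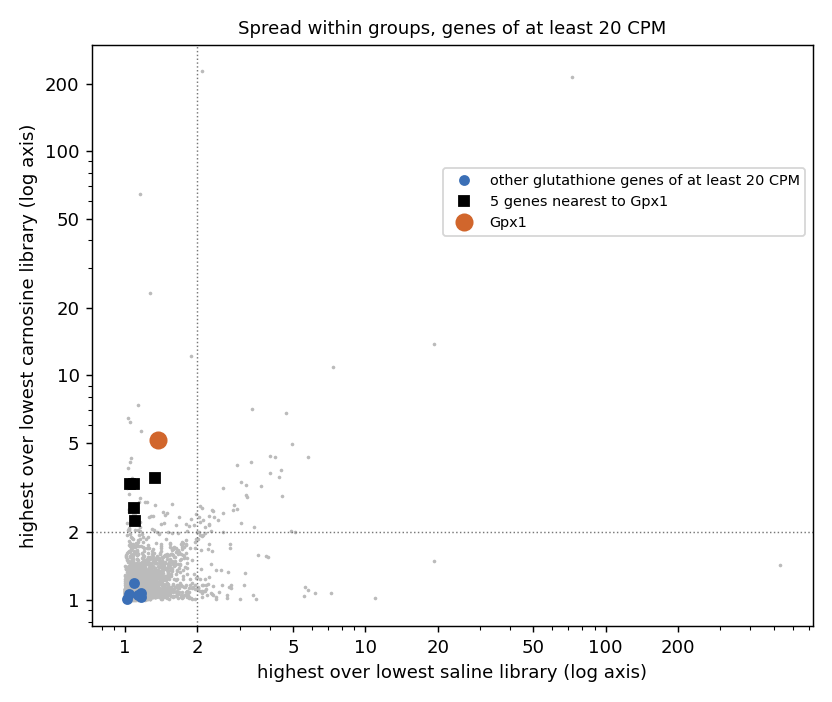
Highest over lowest library within the saline group (horizontal, log axis) and within the carnosine group (vertical, log axis) for the 8096 tested genes of at least 20 CPM, with dotted lines at 2. Gpx1 (orange) lies at 1.38 and 5.13, the 5 genes with the most similar within-group pattern (black squares) lie between 2.24 and 3.48 on the vertical axis, and the other glutathione genes of at least 20 CPM (blue) lie near 1 on both.

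Wide ranges within a group were uncommon but not limited to Gpx1. The limit counted here, 2-fold, is well below the carnosine ratio of Gpx1, 5.13, which ranked number 14. At least a 2-fold range was reached by 113 of the 8096 genes in the carnosine group (1.4%) and by 111 in the saline group (1.37%). In those 113 genes the library farthest from the other two was a low carnosine replicate 1 for 26, a low replicate 2 for 23 and a low replicate 3 for 28. It was a high replicate 1, 2 or 3 for 7, 18 and 11 genes, so no carnosine library stood apart in most of them. The 5 genes whose deviations from their group means lay nearest to those of Gpx1, by root mean square difference of log2 CPM over the 6 libraries, were 6820431F20Rik, Gpatch8, Slc36a1, Ice1 and Ccnc. In each of them carnosine replicate 2 was low, which follows from choosing them by likeness to Gpx1 and is no separate result. Gpatch8 was at 84.48, 25.81 and 83.33 CPM in carnosine replicates 1 to 3 and at 90.37, 83.54 and 82.85 CPM with saline. Slc36a1 was at 60.11, 19.39 and 63.56 CPM with carnosine and at 41.82, 41.8 and 43.86 CPM with saline. In all 5 genes carnosine replicate 2 lay below every saline library, whereas for Gpx1 it lay beside the highest saline library. None of these 5 passed the test between the groups.

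The genes beside Gpx1 on chromosome 9 had narrow carnosine groups. Rhoa, 969 bases away, was at 361.8, 389.3 and 382.8 CPM in saline replicates 1 to 3 and at 346.8, 364 and 341.8 CPM in carnosine replicates 1 to 3, and did not pass the test (edgeR adjusted p = 0.055). Usp4, 7510 bases away, was at 127.8, 123 and 127.2 CPM there. With saline Usp4 was at 115.2, 112 and 120.2 CPM, below every carnosine library, and it rose by a log2 fold change of 0.12 (edgeR adjusted p = 0.035). Carnosine replicate 2 was the highest of the 3 for Rhoa and the lowest for Usp4, though close to the others.

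Gpx4, the peroxidase that reduces lipid peroxides in membranes, did not pass the test. Gpx4 (chromosome 10, 80047166 to 80056439, plus strand) was at 41.34, 42.91 and 37.93 CPM with saline and 37.03, 38.85 and 37.46 CPM with carnosine. The groups overlapped through saline replicate 3 (log2 fold change -0.11 ± 0.061, SE; 95% interval -0.25 to 0.0342; edgeR adjusted p = 0.20). With a correction for GC content and length the sign turned (0.00262).

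The counts of Gpx4 are uncertain because the processed pseudogene Gpx4-ps2 (chromosome 10, 45875291 to 45876086) matches its transcript over 733 bases at 99.7% identity, as in the 45 bases printed above. The sources used here do not say how reads that fit both were assigned. The pseudogene carried most of the pair's counts: Gpx4 held 20.5 ± 0.956% of them with saline and 21.4 ± 0.763% with carnosine (SD, n = 3 each). Gpx4-ps2 itself was at 161.2, 156.6 and 155.6 CPM with saline and 139.4, 135.8 and 142 CPM with carnosine, with no overlap, and fell by 0.18 on the log2 scale (edgeR adjusted p = 0.0032). Summed over both, the pair was at 202.6, 199.5 and 193.5 CPM with saline and 176.4, 174.7 and 179.5 CPM with carnosine. The sum fell by 0.167 on the log2 scale and passed the test (edgeR adjusted p = 0.0033), an alternative added after seeing the data.

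Gstm1, a cytosolic transferase of the mu class, rose in every carnosine library. Gstm1 (chromosome 3, 108012255 to 108017973, minus strand) was at 89.1, 97.3 and 97.39 CPM with saline and 199.4, 167.6 and 175.5 CPM with carnosine. The groups were well apart, and carnosine replicate 1 was the highest library. The means of 94.6 ± 4.76 and 180.8 ± 16.5 CPM (SD, n = 3 each) differed 1.91-fold, a log2 fold change of 0.94 ± 0.0702 (SE; edgeR adjusted p = 6.8e-05). Its call held in all 18 alternative settings, with values from 0.859 to 0.987.

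Gstm1 too has a near copy, Gstm2-ps1 (chromosome 5, 116632908 to 116633564), a processed pseudogene that matches it over 657 bases at 97.9% identity. Gstm2-ps1 was at 8.364, 9.347 and 9.748 CPM with saline and 23.8, 25.3 and 22.01 CPM with carnosine. It rose with Gstm1 (log2 fold change 1.38 ± 0.0901, SE; edgeR adjusted p = 3.6e-05). Gstm1 held 91.2 ± 0.262% of the pair's counts with saline and 88.4 ± 1.3% with carnosine (SD, n = 3 each), so the sum (log2 fold change 0.98) followed Gstm1.

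Gstp1, the transferase of the pi class, was at 54.37, 62.19 and 56.29 CPM with saline and 50.76, 52.33 and 53.44 CPM with carnosine. The carnosine libraries all lay below the saline libraries, yet the test did not call Gstp1 (chromosome 19, 4035407 to 4037921, minus strand; log2 fold change -0.14 ± 0.0613, SE; edgeR adjusted p = 0.11). Its interval ran from -0.29 to 0.001. Its near copies are the pseudogene Gstp-ps (97.6% identity over 631 bases) and Gstp2 (94.2% over 798 bases), and Gstp1 held 72.5 ± 2.43% of the 3 genes' counts with saline. Summed with both, the level fell from 79.4 ± 2.98 to 72.39 ± 1.33 CPM (SD, n = 3 each) and passed the test (log2 fold change -0.134; edgeR adjusted p = 0.044).

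**Figure D3:**
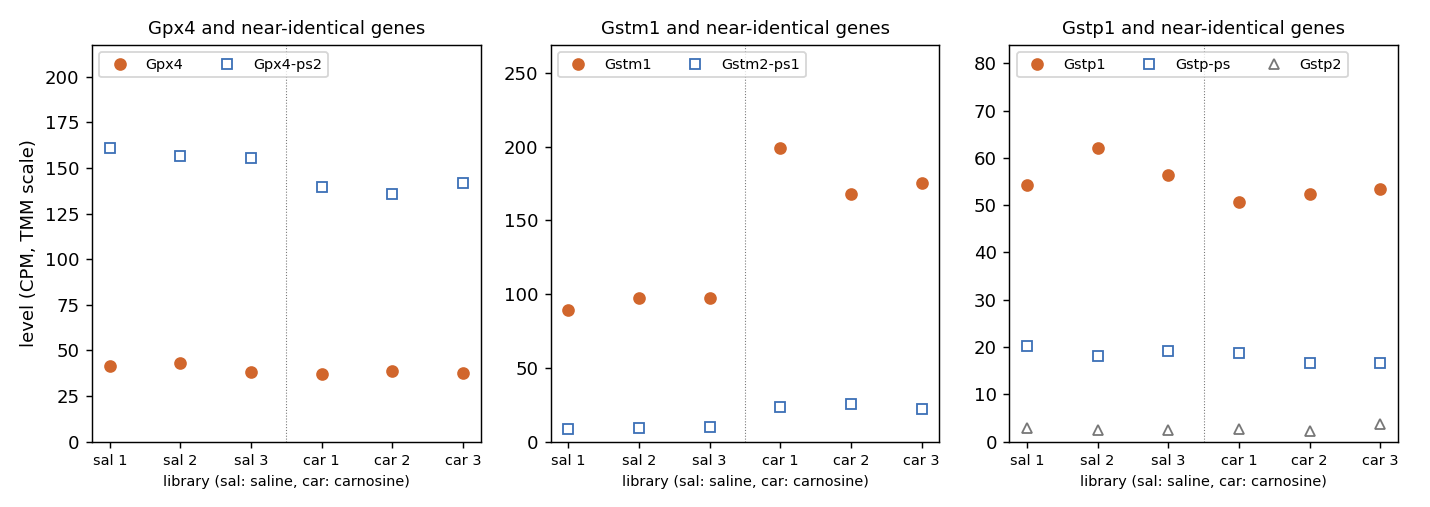
Levels in CPM (TMM scale, vertical axes from 0) of Gpx4, Gstm1 and Gstp1 (filled circles) and of the genes that share at least 300 bases with them at 90% identity or more (open symbols), for saline replicates 1 to 3 and carnosine replicates 1 to 3. Gpx4-ps2 stands above Gpx4 in every library, from 135.8 to 161.2 CPM, whereas Gstm1 and Gstp1 stand above their near copies.

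Gsta4, a transferase of the alpha class that acts on lipid aldehydes such as hydroxynonenal, was the least abundant of the 10. Gsta4 (chromosome 9, 78182774 to 78209349, plus strand) had 22 to 39 counts per library, or 2.364, 2.142 and 1.787 CPM with saline and 2.588, 2.307 and 2.162 CPM with carnosine. The groups overlapped, and at this depth the 95% interval of its log2 fold change was wide, from -0.25 to 0.56 (edgeR adjusted p = 0.59). The membrane-bound Mgst1 (chromosome 6, 138140316 to 138156755, plus strand) was at 14.3, 11.42 and 12.43 CPM with saline and 13.16, 14.34 and 13.05 CPM with carnosine. These groups overlapped as well (log2 fold change 0.0864, 95% interval -0.15 to 0.33, edgeR adjusted p = 0.54).

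**Figure D4:**
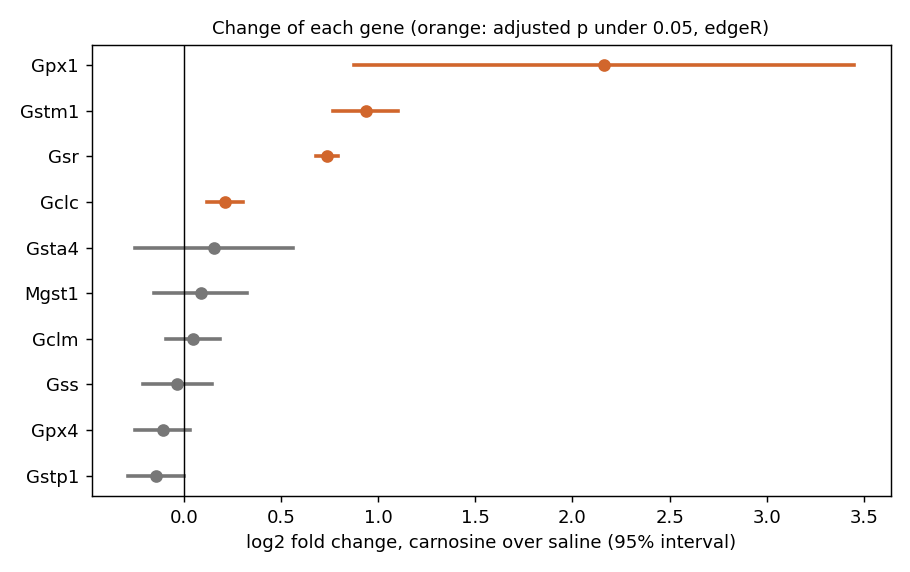
Log2 fold change of carnosine over saline for each of the 10 genes, with its 95% interval, orange where edgeR's adjusted p was under 0.05. The interval of Gpx1, 0.87 to 3.45, is the widest and that of Gsr, 0.68 to 0.80, is the narrowest.

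Compared per length, as CPM per kb of the longest coding transcript, Gpx1 and Gstm1 had the highest means of the 10 in both groups, counting each gene's own row. In the saline group the order of levels was Gpx1 (98.2 ± 17.9 CPM per kb), Gstm1 (73.39 ± 3.7), Gstp1 (70.18 ± 4.96), Gsr (47.99 ± 0.384), Gpx4 (40.93 ± 2.55) and Gclc (25.02 ± 0.451). Below them stood Gclm (17.71 ± 1.4), Gss (12.92 ± 1.05), Mgst1 (10.9 ± 1.25) and Gsta4 (2.147 ± 0.298; SD, n = 3 each). The libraries of neighbours in that order overlapped for Gstm1 with Gstp1 and for Gss with Mgst1. The place of Gpx4 in this order is uncertain, since Gpx4 with Gpx4-ps2 summed to 198.5 ± 4.61 CPM with saline, above the 105.3 ± 19.2 CPM of Gpx1 (SD, n = 3 each), whose transcript is of similar length (1072 bases, against 995 for Gpx4). In the carnosine group Gsr, at 80.11 ± 0.332 CPM per kb, stood above Gstp1, at 63.56 ± 1.64 (SD, n = 3 each). There carnosine replicate 2 placed Gpx1 (121 CPM per kb) below Gstm1 (130 CPM per kb).

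Deposited FPKM values give another order, because the gene length behind them adds up all distinct annotated exons, overlapping ones included. That was so, within 1%, for 89.4% of 10699 genes of at least 100 counts on average. The length used for Gpx1 was 3412 bases, although the gene spans 1441 bases. Its deposited FPKM mean in the saline group, 30.2, was thereby below that of Gstp1, 74.5, for which a length of 757 bases was used, shorter than its annotated exons. A ratio between libraries for a single gene is not touched by this.

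RefSeq promoter windows (GRCm38.p6, 250 bases before to 50 after a transcription start) were found for 7 of the 10 genes. They were Gss, Gstm1, Gclm, Mgst1, Gpx1, Gpx4 and Gstp1, with 12 windows in all. Many glutathione genes are textbook targets of the transcription factor NRF2, which binds antioxidant response elements, so the windows were searched on both strands for the core TGACNNNGC and for the AP-1 motif TGAGTCA. The core was found in Gclm and Mgst1, against 12.4% of all 32851 windows, and the AP-1 motif in Gstp1, against 5.2%. These shares count single windows, while a gene may have several. Only the letters TGACNNNGC were sought for the core, so other forms of the element, in Gstp1 or elsewhere, were not searched. The matches are shown on the strand of the gene, with the motif in capitals; in Gclm and Mgst1 the capitals are the core's reverse complement.
Gclm (chr3:122245407-122245447, plus strand): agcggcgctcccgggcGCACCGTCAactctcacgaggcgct
Mgst1 (chr6:138140455-138140495, plus strand): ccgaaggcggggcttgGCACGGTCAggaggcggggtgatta
Gstp1 (chr19:4037964-4038002, minus strand): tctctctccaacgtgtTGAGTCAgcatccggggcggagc
The motifs begin 134, 56 and 74 bases before the start. None of these 3 genes passed the test between the groups. The windows of Gpx1 and Gstm1 held neither motif, and Gsr and Gclc had no window. Whether motifs go with the changes was not tested. A match is a description of letters and shows no binding, and bases outside the windows were not searched.

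The wider pathway was described with a list of 78 further genes, of which 59 passed the filter on low counts. Of these 59, 20 rose (33.9%, against 19.6% of all tested genes) and 6 fell (10.2%, against 19.8%), and 33 did not pass the test. The median log2 fold change was 0.14. No test was run on the list or its groups as sets. The list was chosen with earlier results of these data known. Its shares, and those of its groups below, describe the listed genes only. Of the 26 genes called, 17 kept their call with every single library left out, and 17 kept it in every alternative setting that tested them. Transcripts with no count in any library were the transferases Gsta1, Gsta2 and Gstm6, the peroxidases Gpx5 and Gpx6, and the transporter Slc1a1.

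Cysteine supply, which limits glutathione synthesis in many cells, moved both ways. Of 7 tested genes 4 rose and 1 fell (57.1% and 14.3%, against 19.6% and 19.8% of all tested genes). The amino acid transporters Slc1a5 and Slc1a4 rose from 148.6 ± 3.64 to 170.3 ± 3.65 CPM and from 9.842 ± 0.685 to 13.58 ± 0.802 CPM (SD, n = 3 each). The cystine transporter has 2 chains, Slc7a11 and Slc3a2. Slc7a11, at 4.955 ± 0.335 and 6.438 ± 0.408 CPM, rose (log2 fold change 0.38; edgeR adjusted p = 0.031), a call lost without saline replicate 1 or 3 or carnosine replicate 2 or 3 (adjusted p up to 0.096). Its abundant partner Slc3a2, which also serves other transporters, fell from 334.3 ± 6.37 to 258.4 ± 4.63 CPM (log2 fold change -0.37; edgeR adjusted p = 5e-05). Mat2a, which makes S-adenosylmethionine upstream of cysteine, rose unevenly, to 215.8, 109.8 and 120.4 CPM in carnosine replicates 1 to 3 from 88.27 ± 2.1 CPM with saline. Its call (edgeR adjusted p = 0.042) was lost without any 1 of the saline replicates (adjusted p up to 0.1).

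Genes of glutathione breakdown and export rose in 7 of 13 tested cases and fell in 1. These are 53.8% and 7.69%, against 19.6% and 19.8% of all tested genes. The surface aminopeptidase Anpep, which splits the dipeptide left after glutathione is cleaved outside the cell, rose from 12.36, 14.02 and 14.95 CPM to 46.52, 46.42 and 46.42 CPM, or 3.38-fold (edgeR adjusted p = 4.6e-06). Anpep is also a surface marker of myeloid cells. The dipeptidase Dpep2 rose from 0.2403 ± 0.108 to 1.783 ± 0.343 CPM. The mitochondrial carrier Slc25a40 rose from 6.545 ± 0.553 to 10.85 ± 0.375 CPM (SD, n = 3 each). Of the efflux pumps, Abcc4 rose from 77.83 ± 4.08 to 107.8 ± 2.9 CPM and Abcc1 fell from 149.8 ± 5.7 to 126 ± 4.27 CPM (edgeR adjusted p = 3e-04 and 0.0027). The cytosolic cyclotransferases Chac1 and Chac2, which degrade glutathione inside the cell, were named after their values were seen. Chac2 rose from 2.389 ± 0.428 to 4.935 ± 0.999 CPM. Chac1, at 1.194 ± 0.364 and 2.143 ± 0.378 CPM, passed (edgeR adjusted p = 0.044) but lost its call without saline replicate 1 or 3 or carnosine replicate 1 or 3 (adjusted p up to 0.12).

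Genes that supply the NADPH used by glutathione reductase rose in 4 of 9 tested cases and fell in 1. These are 44.4% and 11.1%, against 19.6% and 19.8% of all tested genes. The pentose phosphate enzymes Pgd and G6pdx rose from 215.1 ± 5.83 to 277.5 ± 3.73 CPM and from 139.7 ± 1.62 to 160.8 ± 1.37 CPM (edgeR adjusted p = 7.8e-05 and 0.00088). The cytosolic isocitrate dehydrogenase Idh1 rose from 41.3 ± 8.23 to 68.24 ± 3.95 CPM, and Mthfd1, an enzyme of folate metabolism, from 346.3 ± 19.3 to 416.4 ± 11.5 CPM (SD, n = 3 each). Me1, the cytosolic malic enzyme, fell from 0.9835 ± 0.178 to 0.1974 ± 0.183 CPM. That call (edgeR adjusted p = 0.019) was lost without saline replicate 1 or 2 or carnosine replicate 3 (adjusted p up to 0.064).

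Of the other peroxidases and glutaredoxins, 1 of 5 tested genes rose (20%, against 19.6% of all tested genes) and 0 fell (against 19.8%). The gene that rose was the secreted peroxidase Gpx3, at 2.061, 4.739 and 2.518 CPM with saline and 5.824, 6.199 and 5.406 CPM with carnosine. Its call (edgeR adjusted p = 0.042) was lost without saline replicate 1 or 3 or any 1 carnosine replicate (adjusted p up to 0.11). Among 8 genes of selenoprotein synthesis, on which Gpx1 and Gpx4 depend, 1 rose (12.5%, below the share over all tested genes) and 0 fell. Sephs2, which makes the selenium donor, was at 72.61, 64.46 and 70.83 CPM with saline and 98.29, 101.2 and 105.1 CPM with carnosine (log2 fold change 0.55; edgeR adjusted p = 0.00026).

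Of the other transferases, 3 of 17 tested genes were higher and 3 lower (17.6% each way), near the 19.6% and 19.8% over all tested genes. Mgst2 rose from 4.712 ± 0.826 to 9.624 ± 0.59 CPM and Gstm4 from 10.91 ± 1.07 to 15.06 ± 1.61 CPM. Gstk1, a peroxisomal and mitochondrial transferase, fell from 5.072 ± 0.342 to 2.949 ± 0.185 CPM (SD, n = 3 each). Gstp3 rose, and Gstt1 and Ltc4s, the leukotriene C4 synthase, fell, with edgeR adjusted p of 0.029, 0.02 and 0.027. Those 3 genes were under 4 CPM in every library, and each lost its call in 4 or 5 of the 6 fits with 1 library left out. Gstp3 and Gstt1 lost it without saline replicate 2 or 3 or carnosine replicate 1 or 2 (adjusted p up to 0.088 and 0.066), and Ltc4s without any 1 library but saline replicate 3 (up to 0.092).

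**Figure D5:**
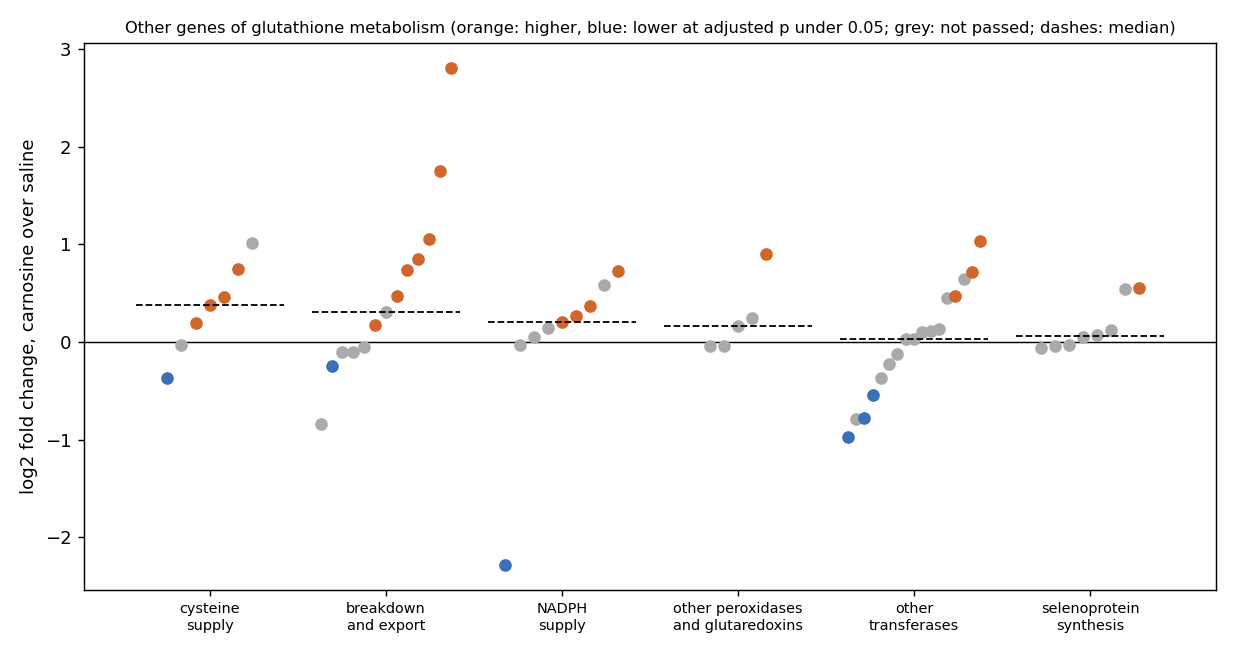
Log2 fold change of carnosine over saline for the 59 tested genes of the wider list, by group, with dashes at each group's median. Orange points rose and blue points fell at an edgeR adjusted p under 0.05, grey points did not pass. The medians run from 0.0343 for the other transferases to 0.38 for cysteine supply.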

How the data were processed

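Poly-A RNA was sequenced as stranded paired-end libraries, per the labels' protocols. The submitters' processing notes name CASAVA 1.8, HISAT2, StringTie, edgeR and GRCm38, with no roles. The sources used here do not give the annotation, strand use or the handling of reads that fit several genes. The authors deposited 1 table with whole-number counts, not normalized, and FPKM values per gene and library.

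Counts were tested with edgeR 4.0.16 (R 4.3.3): filterByExpr kept 15533 genes with 99.8% of counts, followed by TMM scaling and the quasi-likelihood F-test without covariates. CPM are on the TMM scale. The SE is the log2 fold change divided by the square root of F, and 95% intervals use the fit's moderated degrees of freedom. The procedure was tried on counts simulated with the same biological spread for every gene. That check does not cover genes of wide spread, such as Gpx1. Near-identical genes were found with blastn among GENCODE M21 transcripts. Total counts of 12602067 to 16866534 per library limit precision for genes of few counts, and errors from counting cover counting only.

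The members and lists were chosen with earlier results of these data known. Named genes were all members, up to 4 called genes per group of the wider list by p-value, called genes where 5 or fewer passed in a direction, near-identical genes, and the 5 nearest to Gpx1. Alternatives were other scalings and filters, DESeq2 1.42.0, limma 3.58.1 (voom, and trend on log2 FPKM with a pseudocount of 1 or 0.1), a replicate block and each library left out.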

Additional observations from a re-analysis of the deposited data

How the results depend on the processing

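Gclc, Gsr and Gstm1 kept direction and call in all 18 alternative settings, and Mgst1 kept its direction without a call in 18, as Gsta4 did in the 17 that tested it. Gpx1 kept its direction. Its call was lost with limma-voom (log2 fold change 1.84), limma-trend on log2(FPKM + 1) (1.88 with and without a filter) or log2(FPKM + 0.1) (1.91) and with the replicate block (1.91). With 1 library left out it ran from 1.83 to 2.61, and the carnosine ratio of highest to lowest from 1.07 (without carnosine replicate 2) to 5.13. With 1 library left out Gclm ran from -0.0156 to 0.0919 and Gss from -0.0819 to 0.033. The sign of Gclm turned without saline replicate 1 (-0.0156). That of Gss turned without saline replicate 2 (0.033) and in limma-trend on FPKM (0.0201 with and without a filter, 0.0263 with the pseudocount of 0.1), and that of Gpx4 with GC and length correction (0.00262). Summing near-identical genes brought Gpx4 (-0.167) and Gstp1 (-0.134) past the threshold, so 2 members fell in place of 0. This setting and the GC correction were chosen after seeing the data. Genes of the wider list that fell numbered 6, against 2 with at least 5 CPM in 3 libraries and 3 in limma-trend on log2(FPKM + 1) or log2(FPKM + 0.1) with a filter. These settings test fewer genes: the filter on FPKM left out Me1, Gstt1 and Ltc4s, and Slc3a2, Abcc1 and Gstk1 kept their calls there. With the DESeq2 Wald test Slc7a11, Mat2a, Chac1 and Lap3 lost their calls (DESeq2 adjusted p = 0.22, 0.07, 0.15 and 0.068). So did Gstp3, Gstt1 and Ltc4s (DESeq2 adjusted p = 0.1, 0.11 and 0.25). Slc7a11 kept its call in 8 of 16 alternative settings and Mat2a in 8 of 18. Over all genes 3038 rose and 3077 fell, against 3387 and 2156 in limma-trend on log2(FPKM + 1), where the median log2 fold change was 0.051. With the replicate number as a block 2552 rose and 2679 fell. The numbers are not shown to pair the libraries: deviations of same-numbered libraries correlated at 0.0079, 0.027 and 0.021 across genes, although each library correlated best with its own number. Depth limits Gsta4 most, at 22 to 39 counts per library.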
